A study of Talpa occidentalis and Mus musculus with 35 samples.

Results

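The genes described here are PDGFRA, KIT and KDR, which encode receptor tyrosine kinases of the cell surface and lie side by side in the genome of the Iberian mole, Talpa occidentalis. They were taken by name from the annotation of the mole assembly talOcc3, where each symbol had 1 gene line, so 3 of the 23336 gene lines of the file are described. The study sampled gonads of wild-type moles and of mice to look for genes behind the ovotestis of female moles, with 35 RNA libraries in 16 groups. Embryonic moles of day 15 gave 2 libraries of ovotestis and 2 of testis. From moles of 7 days after birth came 3 libraries for each of testis, ovarian ovotestis portion and testicular ovotestis portion, and from adult moles 2 for each of those tissues. Mouse groups had 2 libraries each. At embryonic day 13.5 they were MutFgf9 ovaries, whose allele the labels leave unnamed, and WtB6 ovaries, and the strain entries of these 4 libraries run from C57BL/6 to C57BL/9. The rest were wild-type CD1 mice, with ovary and testis at that embryonic day, at 7 days after birth and at 10 weeks. The annotation held no value per library, so the levels of PDGFRA, KIT and KDR in these groups were not analysed here and library depth is unknown. The results below describe 1 set of gene models, which has no replicates.

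The receptor tyrosine kinases described here bind their ligands outside the cell through immunoglobulin-like domains. Each pairs with a second receptor and switches on the kinase domain inside the cell. KIT, the receptor of stem cell factor, is needed for the migration and survival of germ cells and marks differentiating spermatogonia and oocytes in mice. PDGFRA, a receptor of platelet-derived growth factors, marks interstitial cells of the mouse gonad and is needed for fetal Leydig cells. KDR, the main receptor of vascular endothelial growth factor A, marks endothelium. PDGFRA and KIT belong to class III of the receptor tyrosine kinases with PDGFRB, CSF1R and FLT3, and KDR to class V with FLT1 and FLT4. The 8 genes are related by duplication, and their kinase domains are split by an insert.

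A row of 4 coding parts near the 3′ end of the models had the same lengths in PDGFRA, KIT and KDR, at 123, 112, 100 and 106 bases. No genome sequence of talOcc3 was used here, so the first of these parts is shown from the mouse (GENCODE M21, GRCm38), where its length was the same. It is shown because the 3 genes can be laid over one another there without a gap. Capitals mark the 66 of 123 positions with the same base in the 3 mouse genes. The sequences run 5′ to 3′ on the coding strand, and lie at chr5:75185951-75186073 (plus strand), chr5:75649547-75649669 (plus strand) and chr5:75944523-75944645 (minus strand).
Pdgfra: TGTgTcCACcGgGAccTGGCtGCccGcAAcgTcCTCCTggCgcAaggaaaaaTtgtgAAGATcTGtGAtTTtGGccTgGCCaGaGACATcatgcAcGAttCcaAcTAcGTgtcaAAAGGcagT
Kit: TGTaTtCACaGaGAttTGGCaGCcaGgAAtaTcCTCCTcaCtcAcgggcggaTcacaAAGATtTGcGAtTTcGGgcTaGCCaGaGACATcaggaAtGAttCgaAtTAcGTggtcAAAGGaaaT
Kdr: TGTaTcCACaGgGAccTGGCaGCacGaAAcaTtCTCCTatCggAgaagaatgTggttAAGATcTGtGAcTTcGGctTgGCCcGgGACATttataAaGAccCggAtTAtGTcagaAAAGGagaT

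The order and the directions of the receptor genes in the mole were those of the mouse. On talOcc3 scaffold 10, PDGFRA lay from 35427118 to 35458076 on the minus strand, KIT from 35045830 to 35090513 on the minus strand and KDR from 34774807 to 34814792 on the plus strand. PDGFRA and KIT thus pointed the same way, with PDGFRA upstream, and KIT and KDR pointed toward each other. The mouse genes lie on chromosome 5 (GRCm38) in the same arrangement, with coding spans from 75162243 to 75195100 for Pdgfra and from 75575052 to 75654545 for Kit, both on the plus strand, and from 75934423 to 75978168 for Kdr on the minus strand. From the outer end of PDGFRA to the outer end of KDR the cluster measured 683 kb in the mole, against 816 kb in the mouse, a ratio of 0.837. The first mouse part of Kdr, at this outer end, had no mole counterpart, and without it the mouse distance was 812 kb and the ratio 0.841.

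**Figure D1:**
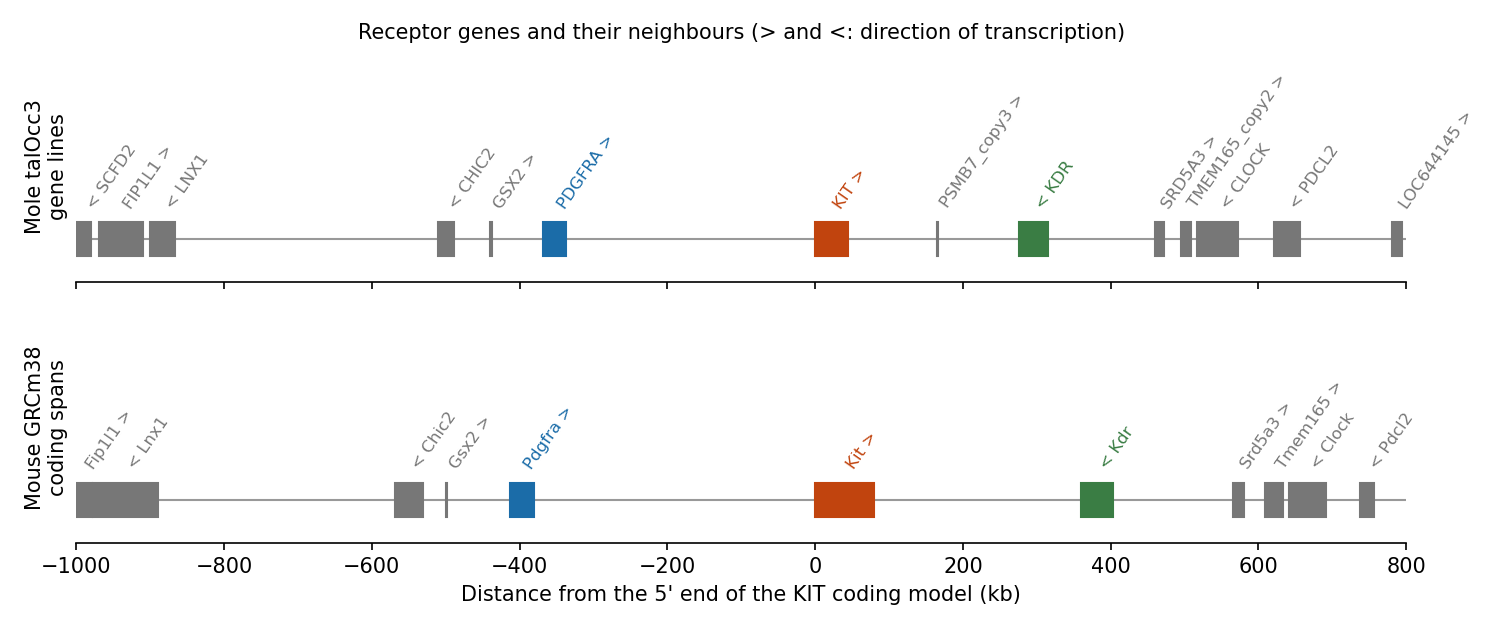
Position of PDGFRA, KIT and KDR (coloured) and of neighbouring loci (grey) in the mole, above, and in the mouse, below, as distance in kb from the 5′ end of the KIT coding model; the mole scaffold is turned so that KIT points right, and > or < gives the direction of transcription. The order and the directions match, the gaps of 337 kb and 231 kb on the 2 sides of mole KIT are shorter than the mouse gaps of 380 kb and 280 kb, and PSMB7_copy3 lies between KIT and KDR in the mole.

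Both gaps beside KIT were long, and both were shorter in the mole than in the mouse. Between PDGFRA and KIT lay 337 kb in the mole and 380 kb in the mouse, a ratio of 0.886, with no gene line in the mole interval and no coding gene in the mouse interval. The 5′ end of KIT faces PDGFRA and the mole model lacks a counterpart of the first mouse part, so that the mole gap ends at part 2; measured from part 2, the mouse gap was 412 kb and the ratio 0.817. Between KIT and KDR lay 231 kb in the mole and 280 kb in the mouse, a ratio of 0.825. For comparison, pairs were formed of genes next to each other among the 12412 genes with 1 locus in both annotations. Loci outside that set were skipped, so the gap of such a pair can hold other loci. Over the 11438 pairs that keep order and orientation between the annotations, 12.8% had a mole gap of at least 200 kb. The ratio of mole to mouse gap had a median of 0.936 over 10586 such pairs with both gaps of at least 1 kb, with quartiles of 0.709 and 1.27. The ratios beside KIT, of 0.886 and 0.825, lay within the middle range of all pairs.

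The interval between KIT and KDR held 1 gene line, PSMB7_copy3, from 34924524 to 34925007 on the minus strand. PSMB7 encodes a subunit of the proteasome. The model was a single coding part of 484 bases, was 1 of 3 loci of that symbol and reached 49.4% of the symbol's highest score. It lay 110 kb from KDR and 121 kb from KIT. In a later mole assembly, MPIMG_talOcc4v2.1, which was used only for names and neighbours, PDGFRA, KIT and KDR followed each other in the same order. No protein-coding locus lay between PDGFRA and KIT or between KIT and KDR there, and each interval held 1 long non-coding RNA locus and 1 pseudogene.

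The neighbours outside the cluster were also those of the mouse. Beyond PDGFRA came GSX2, a homeobox factor of the forebrain, at 70.2 kb in the mole and 84.9 kb in the mouse. CHIC2, LNX1, FIP1L1 and SCFD2 followed, in the mouse order and directions. The gap between CHIC2 and LNX1 was 356 kb in the mole and 321 kb in the mouse, and that between GSX2 and CHIC2 was 49.2 kb and 31.5 kb in the same 2 species. Beyond KDR came SRD5A3, a reductase of steroid and polyprenol metabolism, at 144 kb in the mole and 162 kb in the mouse, or 166 kb from the second mouse part of Kdr. TMEM165_copy2, CLOCK, a transcription factor of the circadian clock, and PDCL2 followed, again as in the mouse. The TMEM165 model beside SRD5A3 reached 72% of the highest score of its symbol. The fifth locus on that side, LOC644145, had no mouse gene of that name. The gaps between the 3 receptors and to GSX2 and SRD5A3 were all shorter in the mole, at ratios between 0.825 and 0.89, as was that between SRD5A3 and TMEM165, at 0.779. The other 6 gaps of the block were longer in the mole. Their ratios were 1.56 from GSX2 to CHIC2, 1.11 from CHIC2 to LNX1, 7.37 from LNX1 to FIP1L1, 2.67 from FIP1L1 to SCFD2, 1.14 from TMEM165 to CLOCK and 1.06 from CLOCK to PDCL2. The highest of these, from LNX1 to FIP1L1, was between short gaps, of 9.49 kb in the mole and 1.29 kb in the mouse. None of these 6 gaps was measured again from paired coding parts. The mole models of CHIC2 and LNX1, whose 5′ ends face GSX2 and CHIC2, were shorter than the mouse coding spans. How far missing parts lengthen these gaps was not tested.

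Of the related receptors, 4 lay in pairs that were closer together than the members were. FLT1, a receptor of vascular endothelial growth factor A, and FLT3, a receptor of blood progenitors, lay on scaffold 6, both on the plus strand. They were 215 kb apart in the mole and 164 kb apart in the mouse. The mole FLT3 model began at the counterpart of mouse part 10, on the side of FLT1, and from that part the mouse gap was 206 kb. That interval held PAN3 in both species, and KATNBL1_copy2 in addition in the mole. PDGFRB, a receptor of pericytes, and CSF1R, a receptor of macrophages, lay 38.5 kb apart on scaffold 3 in the mole and 22.6 kb apart in the mouse, both on the plus strand. The mole model named CSF1R began at the counterpart of mouse part 5, and the counterparts of mouse parts 1 to 4 stood in the adjacent model CSF1R_copy2, which lay 34.8 kb from PDGFRB. FLT4, a receptor of lymphatic endothelium, stood without another of the 8 receptors on scaffold 21. Of the neighbouring receptor pairs, PDGFRA and KIT, FLT1 and FLT3, and PDGFRB and CSF1R were tandem, and KIT and KDR pointed toward each other.

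PDGFRA was the member whose coding parts were most like those of the mouse. Its mole model had 22 coding parts and 3276 coding bases, against 22 parts and 3270 bases in the longest mouse transcript, Pdgfra-201, stop codon included. Of the 22 mole parts, 21 had exactly the length of the mouse part, and part 3, of 267 bases in the mole and 261 in the mouse, was the exception. Over the 12412 genes with 1 locus in both annotations, 73.5% of 131381 mole coding parts had an equal mouse part. Among genes with at least 15 mouse coding parts, which is the closer comparison for genes of this size, 82.3% of 68418 parts did.

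KIT had 20 mole coding parts and 2925 coding bases, against 21 parts and 2940 bases in mouse Kit-201. In KIT 16 of 20 mole parts, or 80%, had the mouse length. The first mouse part, of 67 bases, had no counterpart in the mole model, whose first part of 331 bases was paired with the mouse part of 273 bases. The remaining differences were at mole part 4, of 169 bases against 175 in the mouse, at part 14, of 92 against 89, and at the last part, of 129 against 132. The last mouse length includes the added stop codon, and without that codon 17 mole parts had the mouse length.

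KDR had 29 mole coding parts and 3942 coding bases, against 30 parts and 4038 bases in mouse Kdr-201. In KDR 25 of 29 mole parts, or 86.2%, had the mouse length. Here too the first mouse part, again of 67 bases, was unpaired, and the first mole part of 32 bases was paired with a mouse part of 94. Part 2 had 197 bases in the mole and 203 in the mouse, part 10 had 124 and 112, and the last part had 223 and 196.

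**Figure D2:**
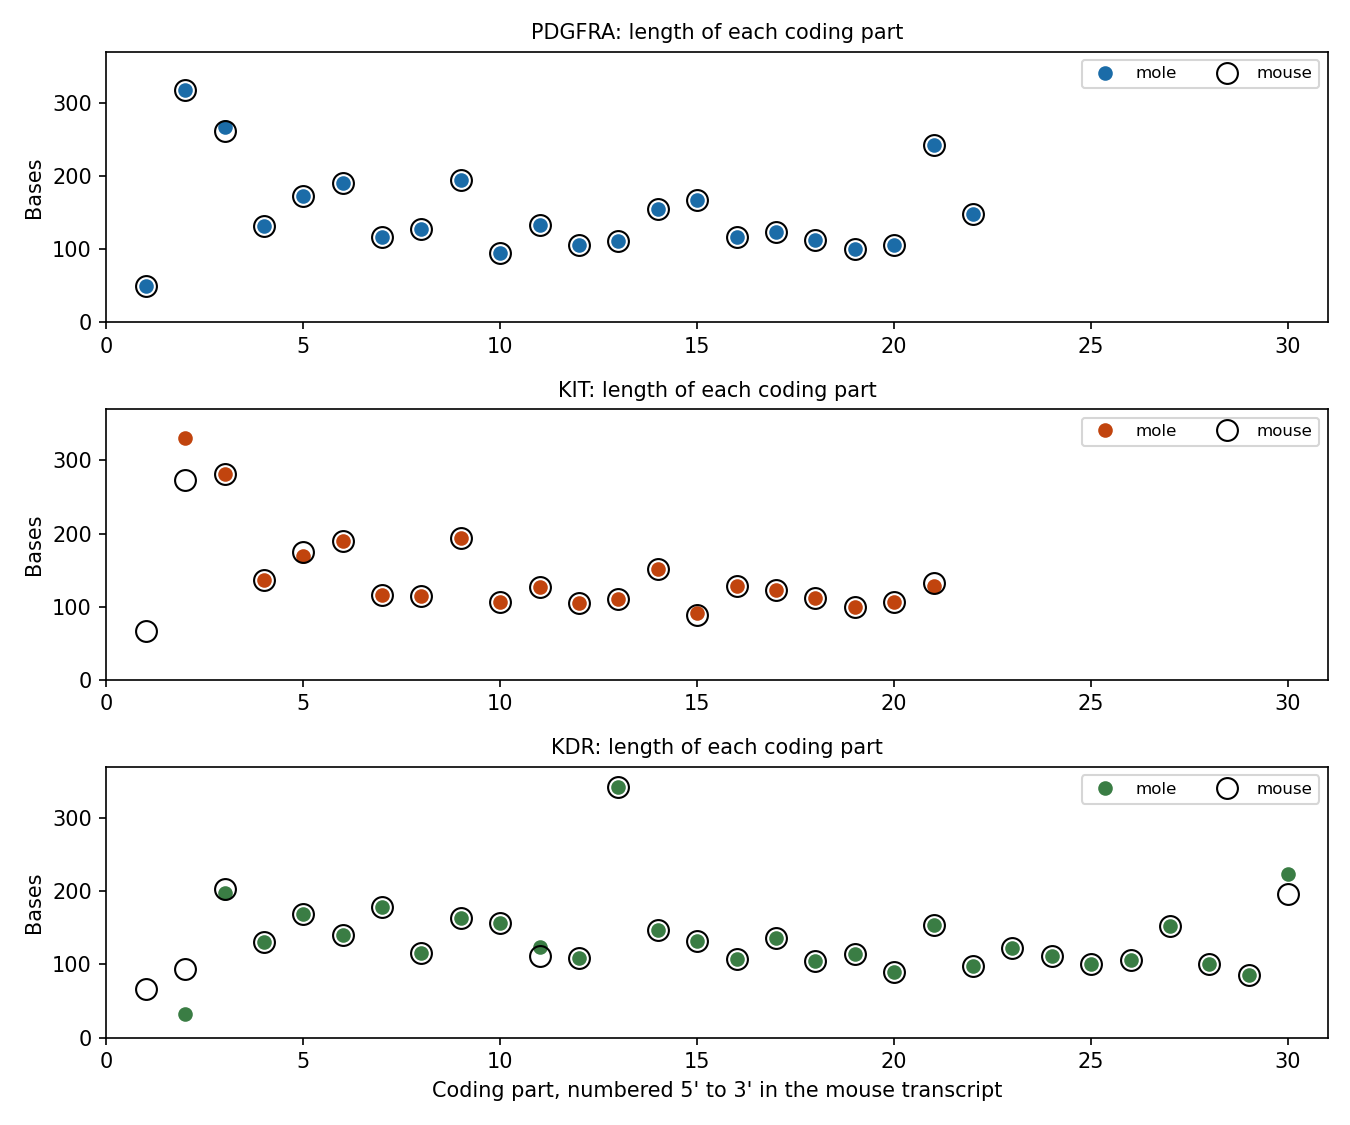
Length in bases of each coding part of PDGFRA, KIT and KDR in the mole (filled) and the mouse (open), placed by the part's number in the mouse transcript. Paired lengths are equal except at 1 part of PDGFRA, 4 of KIT and 4 of KDR. Differences of 3 or 6 bases are hard to see at this scale. The first mouse part of KIT and of KDR has no mole point.

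The members' shares of equal parts were near those of other long genes. The 3016 genes with at least 15 mouse parts had a median of 83.6% equal parts per gene, with quartiles of 73.1 and 91.3%. PDGFRA, at 95.5%, lay above the upper quartile, and KDR at 86.2% and KIT at 80% lay between the quartiles. A first mouse part without a mole counterpart, as in KIT and KDR, was found in 28.5% of the 12412 genes, and fewer coding parts in the mole than in the mouse in 33.6%. Every equal part of the members also had the same reading phase in both species, 21 in PDGFRA, 16 in KIT and 25 in KDR. The same held for every equal part of the related receptors, and the share over all genes was not counted. The phase of a part follows from the summed length of the parts before it, so these counts add nothing to the lengths. Away from the first and last parts, 5 paired parts of the members differed in length, by 6 bases in PDGFRA, by 6 and 3 in KIT and by 6 and 12 in KDR, each a multiple of 3. Over all genes, 77.2% of 12500 such inner differences were multiples of 3.

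**Figure D3:**
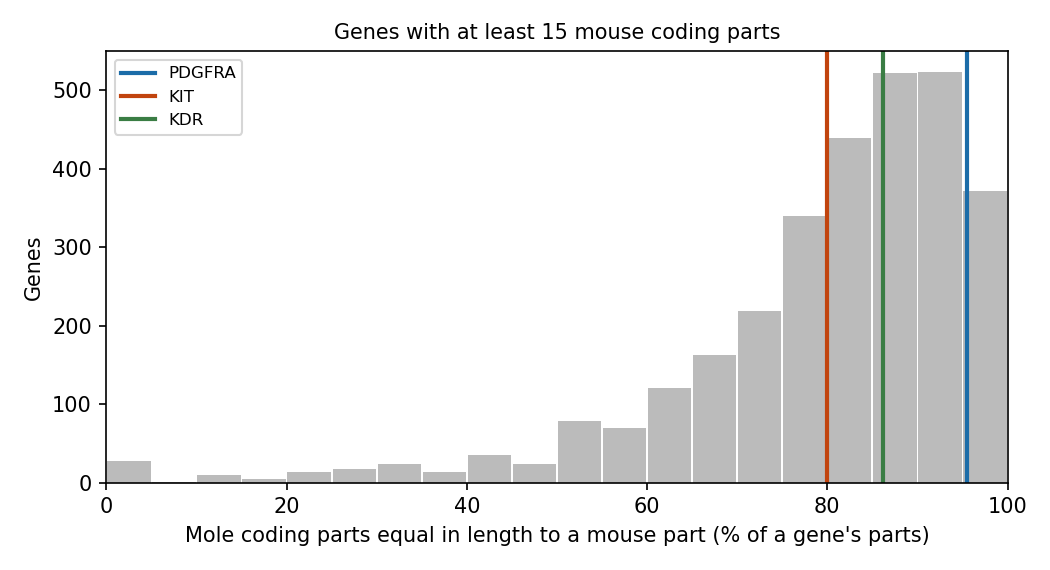
Number of genes (vertical axis) by the percent of a gene's mole coding parts that have the length of a mouse part (horizontal axis), for the 3016 genes with at least 15 mouse coding parts. The lines mark PDGFRA at 95.5%, KDR at 86.2% and KIT at 80%; most genes lie between 70 and 100%.

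KIT is made in mice in a longer and a shorter form that differ by 12 bases at the end of coding part 9, just before the stretch that encodes the membrane-spanning segment. The annotated mouse transcripts Kit-201 and Kit-204 show this pair, with 194 and 182 bases in part 9 (chr5:75638965-75639158 and chr5:75638965-75639146, GRCm38, plus strand). The mole file gives 1 model per gene, and its part 8, the counterpart of mouse part 9, had 194 bases, the length of the longer form. Capitals mark the 12 bases that stand in the longer form and not in the shorter one.
Kit-201: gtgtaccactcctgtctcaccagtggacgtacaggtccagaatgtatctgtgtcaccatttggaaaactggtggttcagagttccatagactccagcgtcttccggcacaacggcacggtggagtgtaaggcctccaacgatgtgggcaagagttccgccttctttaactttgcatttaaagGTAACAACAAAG
Kit-204: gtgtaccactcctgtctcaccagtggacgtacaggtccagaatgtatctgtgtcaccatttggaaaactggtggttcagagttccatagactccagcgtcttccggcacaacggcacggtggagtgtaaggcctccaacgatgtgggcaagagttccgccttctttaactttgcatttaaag

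Whether the shorter form is made in the mole gonad cannot be read from a file with 1 model per gene. PDGFRA, whose part 9 is followed by the part of 95 bases, also had 194 bases at that part in both species.

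The shared row of lengths was found in no gene outside the receptor family. The run of 123, 112, 100 and 106 bases was the longest run of lengths shared by the 3 members, and was chosen for that reason. A search of the 13913 mole models with at least 4 coding parts found it in 7, or 0.0503%. These were PDGFRA, KIT, KDR, PDGFRB, FLT1, FLT3 and FLT4, so every model outside the members that held it was a related receptor. The search in the mouse, over 15517 coding genes, found the same 7 genes, or 0.0451%. CSF1R, the eighth, had 109 bases in place of 106 in both species. The run, 441 bases in all, followed 16 coding parts in PDGFRA, 15 in KIT and 21 in KDR in the mole, and 16, 16 and 22 in the mouse. After it came 2 parts in PDGFRA, 1 in KIT and 4 in KDR, in both species.

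**Figure D4:**
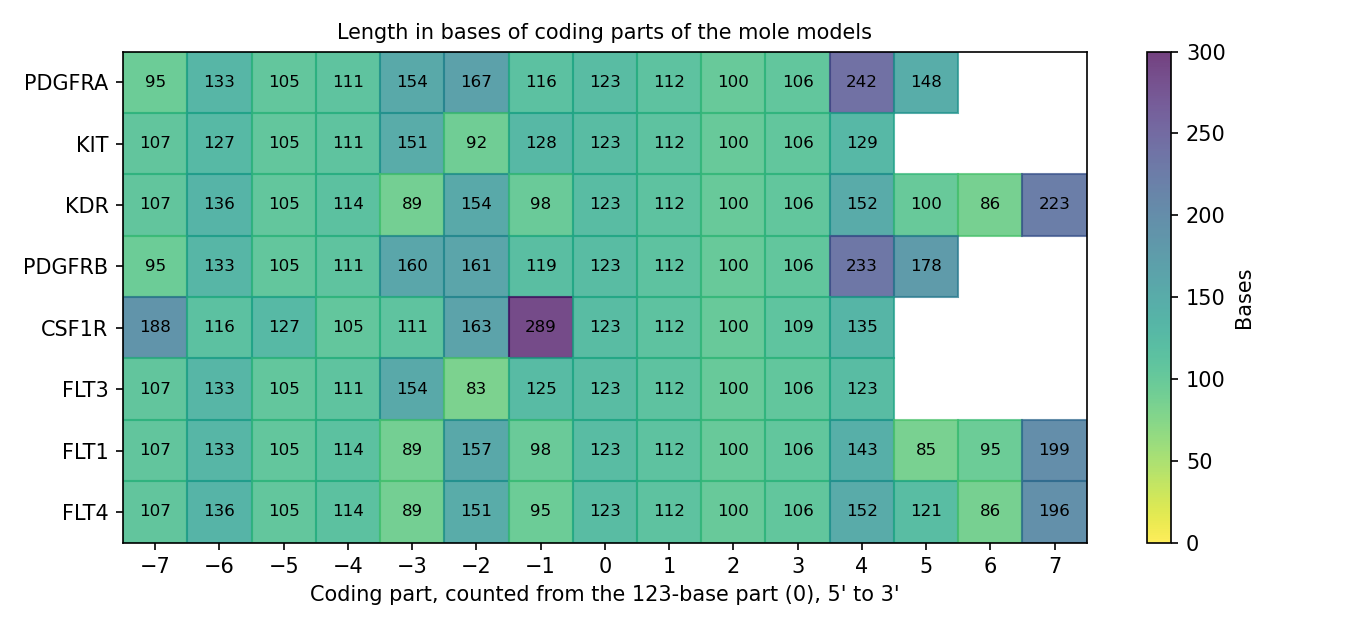
Length in bases (numbers and colour) of coding parts of the 8 mole receptor models, lined up at the 123-base part (position 0 on the horizontal axis), with PDGFRA, KIT and KDR in the upper rows. Positions 0 to 3 hold 123, 112, 100 and 106 bases in every row except CSF1R with 109 at position 3, and position −2 holds 167, 92 and 154 bases in PDGFRA, KIT and KDR; the CSF1R part of 289 bases stands where the mouse has 2 parts, so its earlier parts appear 1 position to the right.

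Upstream of the run the members kept some lengths and not others. The fifth part before it had 105 bases in PDGFRA, KIT and KDR in the mole, and in all 8 receptors in the mouse. The next part had 111 bases in PDGFRA and KIT and 114 in KDR. The part after that had 154, 151 and 89 bases in PDGFRA, KIT and KDR, and the one after it, second before the run, had 167, 92 and 154. KDR shared 105, 114 and 89 bases at these positions with FLT1 and FLT4, its class V relatives, in both species. Over the 8 receptors of the mouse, the part second before the run had 6 different lengths, between 83 and 167 bases. The parts just before and just after the run differed in length among the 3 members, and the fifth part before it did not.

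The introns inside the run differed in length between the members. In the mole, the introns between its 4 parts had 2214, 1452 and 115 bases in PDGFRA, 3612, 115 and 320 in KIT, and 152, 233 and 1315 in KDR. In the mouse they had 1789, 1045 and 111 bases in Pdgfra, 2880, 95 and 363 in Kit, and 140, 246 and 384 in Kdr. Within each gene the order of the 3 introns by length was the same in both species, while the last of them in KDR was 3.42 times as long in the mole as in the mouse.

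Each member was closest in the base sequence of the run to a receptor of its own class, in the mouse. Over its 441 bases, laid over each other without gaps, Pdgfra and Kit were identical at 66.7%, Pdgfra and Kdr at 61.7%, and Kit and Kdr at 59.4%. Kdr was closest to Flt1 at 73.9% and to Flt4 at 69.8%, and Pdgfra was closest to Pdgfrb at 70.7%. Kit had its highest value, 66.7%, with Pdgfra. Csf1r, whose last part of the run is longer, could be compared over the first 335 bases, at 69% with Kit, 69.3% with Pdgfra and 62.4% with Kdr. Over the same 335 bases, Pdgfra and Kit were identical at 69.9%, Pdgfra and Kdr at 63%, and Kit and Kdr at 62.7%. These values describe mouse genes, since no talOcc3 sequence was used here.

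Introns of the members were about as long in the mole as in the mouse. Introns were compared where the coding parts on both sides had equal lengths in the 2 species, which held for 19 of 21 introns of PDGFRA, 13 of 19 of KIT and 23 of 28 of KDR. The median ratio of mole to mouse length was 0.975 in PDGFRA, 1.01 in KIT and 1.01 in KDR. Over 79282 introns of all genes, compared in the same way, it was 0.989, with quartiles of 0.738 and 1.22. The mole intron was longer in 9 of 19 cases in PDGFRA, 7 of 13 in KIT and 13 of 23 in KDR. The values of the members thus did not stand apart from those of other genes.

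Single introns differed more. The lowest ratio in KIT, 0.292, was at mole intron 12, between the parts of 111 and 151 bases, with 1286 bases in the mole and 4398 in the mouse. The highest ratio in KDR, 3.42, was at mole intron 24, the last inside the run. In PDGFRA the ratios ran from 0.533 to 1.39. The longest intron of mole KIT was intron 6, with 12857 bases in the mole and 14189 in the mouse, and the shortest was intron 11, with 78 bases in the mole and 112 in the mouse. The longest introns of PDGFRA and KDR had 2730 and 4913 bases in the mole.

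**Figure D5:**
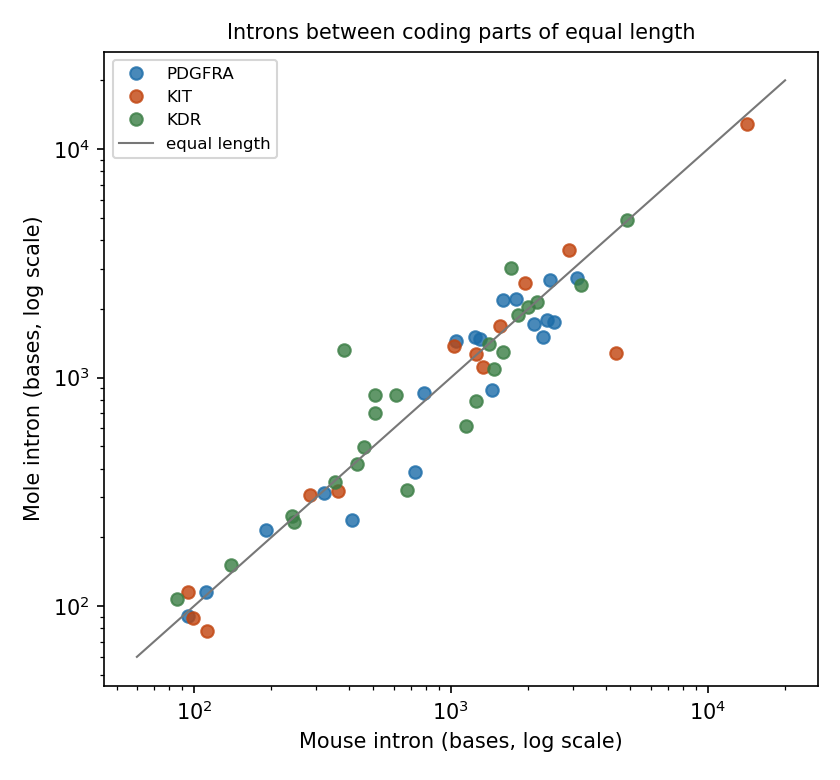
Length of introns of PDGFRA (19), KIT (13) and KDR (23) between coding parts of equal length, in the mole (vertical axis) and the mouse (horizontal axis), in bases on log scales; the line marks equal length. Most points lie near the line; KIT intron 12, with 1286 bases in the mole and 4398 in the mouse, and KDR intron 24, with 1315 and 384, lie farthest from it.

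As annotated, the gene spans differed most in KIT, but not when counted from paired coding parts. The mole KIT model spanned 44.7 kb and the mouse coding span was 79.5 kb. The first mouse intron of Kit had 31.9 kb and joined the first coding part, which the mole model lacked, to the second. Counted from the second coding part, the mouse span was 47.5 kb, and the ratio of mole to mouse was 0.94. KDR spanned 40 kb in the mole and 43.7 kb in the mouse, or 40.1 kb from the second mouse part on, a ratio of 0.998. PDGFRA spanned 31 kb in the mole and 32.9 kb in the mouse, a ratio of 0.942, close to that of KIT from its second part.

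The coding sequences of the 3 members were longer than those of most other genes. By coding length, KDR ranked 1031, PDGFRA 1643 and KIT 2118 among the 21490 loci with a symbol, whose median was 1068 bases. The deposited score, a number attached to the match with a named reference transcript, was 5284 for KDR, 4694 for PDGFRA and 3652 for KIT. These scores ranked 631, 863 and 1551 among 21471 scored loci with a symbol. The scores covered 3940, 3270 and 2867 bases of the reference transcripts, which gives 1.34 per base for KDR, 1.44 for PDGFRA and 1.27 for KIT. Over 10527 genes with 1 locus in both annotations whose models carry the label EVM, as those of the members do, the median was 1.29 per base, with quartiles of 1.07 and 1.44. No source used here defines the score, so it serves only to order models.

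The ligands and co-receptors lay elsewhere in the genome. Of 15 symbols searched, which were the ligands of the class III and class V receptors and the neuropilins, 14 had a locus and each had 1. They lay on 13 scaffolds, none of them scaffold 10. KITLG, which encodes stem cell factor, the ligand of KIT, lay on scaffold 19 from 24286412 to 24322898, with 9 coding parts, of which 7 had the mouse length. PDGFA, a ligand of PDGFRA, lay on scaffold 5 with 6 parts, of which 3 were equal, and VEGFA, a ligand of KDR, on scaffold 20 with 7 parts, of which 6 were equal. NRP2, a co-receptor of vascular endothelial growth factors, had 17 parts, of which 15 were equal. PDGFB had 0 of 4 parts equal and PGF 1 of 7. Over the 14 genes, 73 of 116 mole parts had the mouse length, or 62.9%, against 73.5% over all genes. These shares are not matched for size. The share was 82.3% in genes with at least 15 mouse parts, and of the 14 genes only NRP1 and NRP2 had that many. FLT3LG was not found under its symbol.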

How the data were processed

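Groups were taken from the titles of the 35 libraries, which are polyadenylated RNA of whole gonads or parts of them per the labels. STAR 2.6.1d and mm9 appear, without a role, in the submitters' processing notes, and no source used here says how the gene models were made. The authors deposited 1-based positions of gene models and a score per model. No column belongs to a library (0 columns of per-sample values were left unused), so the planned expression contrasts were not run.

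Models were read in Python 3.11.15 with numpy 2.4.6, and figures were drawn with matplotlib 3.10.9. Endings that mark copies or low confidence were cut from gene names. The mouse comparison used the longest coding transcript of protein-coding genes in GENCODE M21 (GRCm38); no coordinate was converted. Coding parts were ordered 5′ to 3′ and the 2 lists of lengths aligned by edit distance, in which equal lengths match. GENCODE leaves out the stop codon. The last part was 3 bases longer in 70.8% of 2067 models labelled EVM whose inner parts equal the mouse's, so the stop codon was added to the mouse for EVM models; this choice was made after seeing the data. The alignment was tested on simulated data. Gaps are bases between gene lines (mole) or coding spans (mouse).

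Named genes were the 3 members, 5 related receptors, the 5 nearest loci on each side, loci between members, and ligands. Members and lists were chosen with earlier results of these data known. Genes are not replicates, and no test was made.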

Additional observations from a re-analysis of the deposited data

How the results depend on the processing

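No paired analysis was possible because no value in the annotation belongs to a library. Of 28 alternatives, 19 left a count or rank within 1.5 times, or another value the same to 3 significant digits, 9 moved a value and 0 reversed one. Some of the 19 had little or no room to move. The equal parts of PDGFRA, KIT and KDR could not rise 1.5 times, since the models have 22, 20 and 29 parts. Counting only loci with a symbol could not change the loci between members, since PSMB7_copy3 has one. The tally is thus no measure of how stable the results are. With whole mouse genes in place of coding spans, the mouse gaps were 377 kb (PDGFRA to KIT) and 276 kb (KIT to KDR), and the ratios of mole to mouse were 0.894 and 0.837. From the first mouse part with a mole counterpart, an alternative added after seeing the data, the gap of PDGFRA to KIT was 412 kb and the ratio 0.817. The share of equal parts over all genes was 78.3% when lengths could differ by up to 3 bases, 74.3% with the mouse transcript of most equal parts and 69.8% without the mouse stop codon, also added after seeing the data. Under these settings the counts of equal parts ran from 20 to 21 in PDGFRA and from 16 to 18 in KIT, and stayed at 25 in KDR. Introns could be matched by number in PDGFRA alone, with an unchanged median, since the numbers of parts differ between the species in KIT and KDR. Where a model begins limits what can be said of the first parts of KIT and KDR.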

Other observations

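Among the related class III receptors, the models of FLT3 and CSF1R left more mouse parts unpaired than those of KIT and PDGFRA did. The FLT3 model had 15 coding parts and 1692 coding bases, against 24 parts and 3003 bases in the mouse, and 9 mouse parts had no mole counterpart. Of its 15 parts, 12 had the mouse length. The CSF1R model of highest score had 16 parts and 2178 bases, against 21 parts and 2934 bases in the mouse, with 12 equal parts and 5 mouse parts without a counterpart. Of those 5 parts, the first 4 were paired in CSF1R_copy2, a model of 4 parts and 828 bases on the same strand that ended 0.678 kb before it. The fifth was mouse part 15, of 89 bases. It was unpaired beside a mole part of 289 bases that stands where the mouse has 2 parts. FLT4, of class V, was the relative closest to the mouse, with 27 of 30 parts equal and 4089 coding bases in the mole against 4092 in the mouse. PDGFRB had 17 of 22 and FLT1 24 of 29 mole parts equal.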
